A study of Homo sapiens with 2 samples.

Results

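The genes described are 10 members of the ETS family of transcription factors, ETS1, ETS2, ELK1, ELK3, ELK4, ELF1, ELF3, EHF, GABPA and SPDEF. They belong to the same family as ETV4 and were chosen by name, not by their signal, although earlier results of these data were known. Every Flag-ETV4 peak within 20 kb of the span of these genes in RefSeq was taken, which gave 28 peaks of the 54389 in the list. The data came from A549, a human non-small cell lung cancer (NSCLC) cell line, in which ETV4 was knocked down by a short hairpin RNA (shETV4) and Flag-tagged ETV4 was supplied again by transfection. ChIP-seq was performed on 1 anti-Flag immunoprecipitate and 1 input library from A549, and the peaks of the immunoprecipitate were analysed. The labels of the samples give a Flag antibody from Sigma, whereas the methods of the study give one from CST. There was no replicate and no second condition, so no SD and no test between groups can be given. The share of cells that took up the construct is not given in the sources used here. Expression was not measured in these data, so the epithelial identity of the cells could not be checked against marker genes.

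ETS factors share a winged helix-turn-helix domain that binds DNA around a GGAA core, and several of them can occupy the same sites. ETS1 and ETS2 are close relatives whose activity is raised by ERK phosphorylation. ELK1, ELK3 and ELK4 are the ternary complex factors, which bind beside SRF at serum response elements, and GABPA is the DNA-binding subunit of GABP, a regulator of many housekeeping and mitochondrial genes. ELF1 is widely expressed, whereas ELF3, EHF and SPDEF are known for their role in the differentiation of epithelial cells, including those of the airway. The question addressed here was where Flag-ETV4 was enriched around the genes of its own family.

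Of the 10 genes, 7 carried a peak no further than 1 kb from either end of the gene, against 62.1% of the 20037 protein-coding genes, so the share of these genes was near the background. The genes with a peak at an end were ETS1, ETS2, ELK1, ELK3, ELK4, ELF1 and GABPA, and those without were ELF3, EHF and SPDEF. With limits of 2 kb and 3 kb the same number, 7, was found, against 65.7% and 68.4%. Any peak within 20 kb of the span was present for 9 of the 10 genes, all but ELF3, against 86.1%. The direction of transcription and the annotated starts came from the RefSeq promoter table (GRCh38.p14), which matched 9 of the 10 genes with 14 starts in all. ETS1 has no entry in it. Among the 9 genes, 6 carried a peak no further than 1 kb from the outer 5′ end, against 61.3% of the 15843 protein-coding genes whose direction the table gives. None of the 9 genes carried one at the outer 3′ end by the same limit, against 9.56% of the same 15843 genes.

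The bases upstream of the outer start are shown for the 6 genes at which the promoter table lists that start and no protein-coding gene overlaps these bases, so that promoters inside, beside and without a peak can be set side by side. The promoters of ELK4 and ELK3 lay wholly inside a peak, the peaks of ETS2 and ELK1 began within a few bases downstream of the outer start, and the promoters of ELF3 and SPDEF had no peak. Each run is the 250 bases before the outer start, 5′ to 3′ on the strand of the gene, and capitals mark the ETS core GGAA or its reverse complement TTCC.
ELK4, chr1:205632012-205632261, minus strand: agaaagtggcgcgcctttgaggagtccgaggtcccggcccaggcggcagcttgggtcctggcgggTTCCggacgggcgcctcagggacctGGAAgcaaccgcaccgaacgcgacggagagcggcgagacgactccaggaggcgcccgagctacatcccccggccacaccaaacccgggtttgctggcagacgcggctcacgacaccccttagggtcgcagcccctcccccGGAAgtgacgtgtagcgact
ELK3, chr12:96194125-96194374, plus strand: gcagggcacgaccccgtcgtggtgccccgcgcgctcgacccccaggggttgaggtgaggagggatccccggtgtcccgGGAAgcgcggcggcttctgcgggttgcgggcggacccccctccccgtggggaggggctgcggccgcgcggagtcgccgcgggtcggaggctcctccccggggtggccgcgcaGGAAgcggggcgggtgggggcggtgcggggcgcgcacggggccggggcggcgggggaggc
ETS2, chr21:38804933-38805182, plus strand: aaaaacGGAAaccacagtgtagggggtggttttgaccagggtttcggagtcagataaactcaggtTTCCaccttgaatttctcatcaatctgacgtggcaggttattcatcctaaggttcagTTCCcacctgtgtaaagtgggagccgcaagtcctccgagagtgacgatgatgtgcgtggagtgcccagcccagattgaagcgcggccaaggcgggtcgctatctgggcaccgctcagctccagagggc
ELK1, chrX:47650605-47650854, minus strand: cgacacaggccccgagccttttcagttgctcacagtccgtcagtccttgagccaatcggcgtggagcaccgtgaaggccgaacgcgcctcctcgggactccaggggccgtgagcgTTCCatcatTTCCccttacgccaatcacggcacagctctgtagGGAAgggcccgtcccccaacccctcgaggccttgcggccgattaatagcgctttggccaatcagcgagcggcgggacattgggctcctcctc
ELF3, chr1:202010337-202010586, plus strand: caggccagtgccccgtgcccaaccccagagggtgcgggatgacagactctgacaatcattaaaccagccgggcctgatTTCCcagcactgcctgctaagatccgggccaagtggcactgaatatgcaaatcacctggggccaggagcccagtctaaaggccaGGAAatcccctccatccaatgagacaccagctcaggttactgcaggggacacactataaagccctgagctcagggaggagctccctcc
SPDEF, chr6:34556330-34556579, minus strand: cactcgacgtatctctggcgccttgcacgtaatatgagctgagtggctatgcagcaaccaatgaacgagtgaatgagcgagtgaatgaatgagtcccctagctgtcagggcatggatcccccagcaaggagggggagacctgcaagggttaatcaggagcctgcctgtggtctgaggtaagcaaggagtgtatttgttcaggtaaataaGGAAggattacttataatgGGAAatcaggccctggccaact

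The core alone did not separate these promoters. GGAA was present on either strand in 12 of the 14 windows of 250 bases before the starts of the members, and in 92.7% of the 35116 such windows in the table. These cover all types of gene, and the 22199 windows of protein-coding genes are the closer background for the members. Of those, 92.5% held GGAA. The longer site CCGGAAG, which contains the core, was found in 2 of the 14 windows, those of ELK4 and GABPA. It was found in 8.52% of all windows and in 10.7% of those of protein-coding genes. In the windows of ELK4 and GABPA it was followed by T, so that the overlapping site CGGAAGT was also present. That site is held by 5.69% of all windows and 7.18% of those of protein-coding genes. In the ELK4 promoter the site CCGGAAG ran from 22 to 16 bases before the start and adjoined TGACGT, the core of the cyclic AMP response element, from 15 to 10 bases before the start, so that TGACGT shares 1 base with CGGAAGT. The letters TGACGT were found in 7.102% of all windows, and among the members also before the outer start of ETS2 and before 1 start each of EHF and ELF1. The AP-1 site TGANTCA was found in none of the 14 windows, against 6.57% of all windows and 5.36% of those of protein-coding genes. The GC box GGGCGG was found in the windows of ELK3, ELF1 and GABPA, against 42.6% of all windows and 53.7% of those of protein-coding genes. The ELK3 window had 4 GC boxes. All motifs were searched on both strands. A match is a description of the letters and does not show a bound site.

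Within the GABPA promoter, the site lay on the opposite strand, from 66 to 60 bases before the start. It is shown with its neighbours as 30 bases of the plus strand, with the reverse complement of the core in capitals.
GABPA, chr21:25734894-25734923, plus strand: acctccgctctacTTCCggccctggctccg

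The depth behind each peak was recovered from the list. With a pseudocount of 1 and Poisson tails, the fold enrichment (the pileup of fragments at the summit over the control level from the input) and the −log10 p of a peak give its pileup in whole fragments and its control level. Over all peaks the median pileup was 26 fragments, and the median fold enrichment was 9.63. The 28 peaks had a median pileup of 28.5 fragments, with a range of 8 to 140, and a median fold enrichment of 10.4, with a range of 2.72 to 58.9. Their control levels, from 1.28 to 3.04, did not include unusually high values, since the median over all peaks was 1.67. In 9 of the 28 peaks the pileup was 15 fragments or fewer, and at these the counting error is wide.

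**Figure D1:**
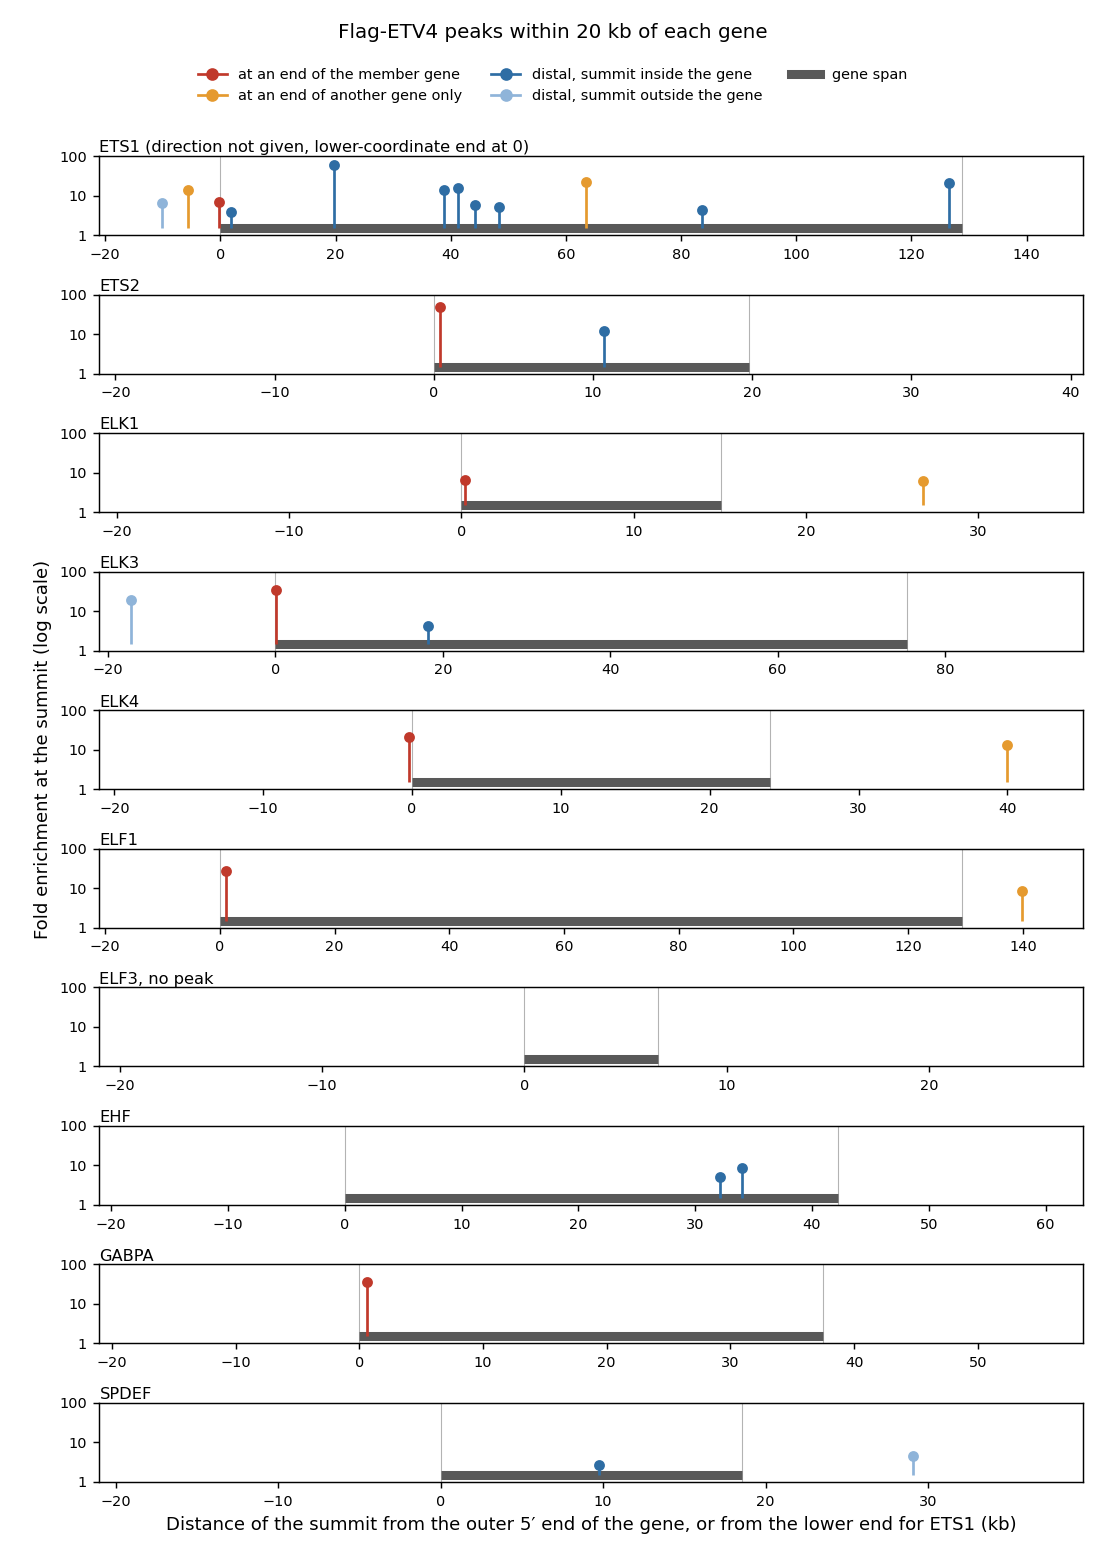
The summits of all 28 peaks are plotted by gene, with the distance from the outer 5′ end in kb on the x axis and the fold enrichment on a log scale on the y axis. ETS1, whose direction the table does not give, is drawn from its lower-coordinate end. ETS1 carried 12 peaks along its length, whereas ELF1, a gene of similar span, carried 1 at its 5′ end and 1 in the flank.

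At the ETS group, the strongest peak at a gene end was found at ETS2 (RefSeq chr21:38805183-38824955, plus strand). The peak, chr21:38805186-38806784, had a fold enrichment of 48.9, a −log10 q of 179 and a width of 1599 bp. The pileup at the summit was 121 fragments, with exact Poisson 95% limits of 100.4 and 145, given in the same way in parentheses below. The control level was 1.49. Among all peaks at gene ends it ranked at the 93.0th percentile by fold enrichment. The peak began 3 bp inside the gene, so the 250 bases before the outer start, printed above, were outside it. Its summit, at 38805604, lay 421 bp downstream of the outer start and at −325 bp relative to the other annotated start, at 38805929, whose 250 preceding bases were wholly inside the peak. A weaker peak inside ETS2, chr21:38815637-38816264, reached 12.3 in fold enrichment with 27 fragments (17.8 to 39.3), and lay 10709 bp downstream of the outer start. The intervals of the pileups did not overlap.

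ETS1 (chr11:128458765-128587558), a factor known from lymphoid cells, vessels and invasive tumours, had 12 of the 28 peaks. Summits of 9 of them lay inside the gene and 3 outside it. The gene spans 129 kb. Among the 1400 protein-coding genes with a span of 0.8 to 1.25 times this length, the median was 3 peaks within 20 kb, and 2.79% had 12 or more. ELF1, which spans 129 kb as well, had 2.

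The highest fold enrichment near any of the 10 genes was inside ETS1, at chr11:128478036-128478976. This peak had a fold enrichment of 58.9, at the 95.8th percentile of all peaks, and a −log10 q of 220. At its summit 140 fragments (118 to 165) were piled up, and no RefSeq gene end was within 19.3 kb of it. It was a distal peak, and its pileup interval overlapped that of the peak at the 5′ end of ETS2. The second highest in ETS1, chr11:128521305-128523258, reached 21.5 with 71 fragments (55.5 to 89.6). It was 1954 bp wide and contained an end of MIR6090, a microRNA gene inside ETS1. The third, chr11:128585105-128585569, reached 20.99 with 52 fragments (38.8 to 68.2), and its summit lay 2200 bp inside the upper end of ETS1.

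By the limit of 1 kb, the peak at an end of ETS1 itself was weak. With limits of 2 kb and 3 kb, the peak with a fold enrichment of 20.99 would also count, as its interval lay 1989 bp from the upper end. The weaker peak is described first. It lay beyond the lower end, at chr11:128458260-128458616, with a fold enrichment of 6.72, a −log10 q of 11.4, from 20 fragments (12.2 to 30.9). A group of 4 summits in the middle of the gene, from 128497534 to 128507149, had fold enrichments of 14.0, 15.8, 5.68 and 5.14. The remaining peaks inside the gene had fold enrichments of 3.83 and 4.32 with 8 and 15 fragments. In the flank below the gene, the peak near an end of LOC124902789 had a fold enrichment of 14.1, and the outermost peak one of 6.61.

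**Figure D2:**
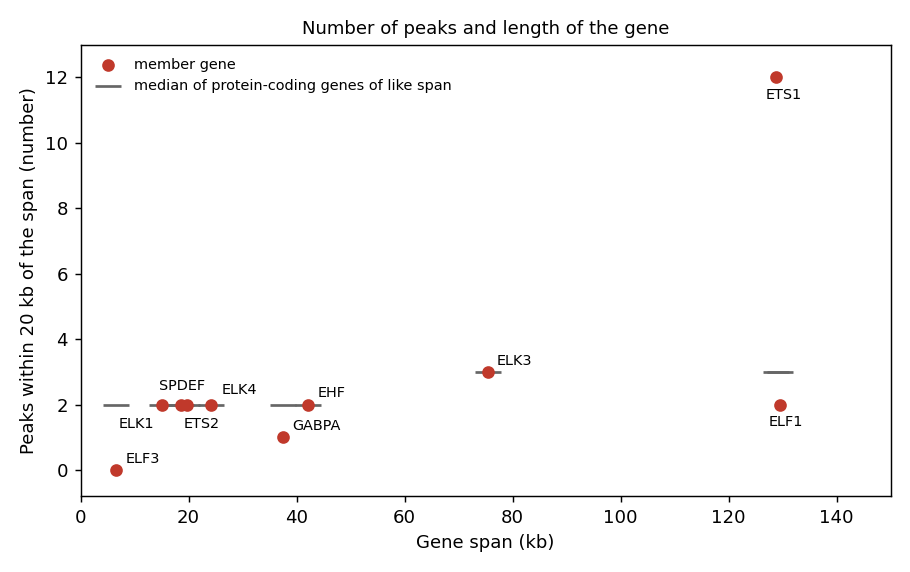
The number of peaks within 20 kb (y axis) is plotted against the span of each gene in kb (x axis), with dashes for the median of the protein-coding genes of 0.8 to 1.25 times the same span. ETS1, with 12 peaks, stood above its dash at 3, and the other 9 genes had 0 to 3 peaks each.

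All 3 ternary complex factors had a peak at the 5′ end, as did 61.3% of the protein-coding genes with a known direction, and its strength differed between them. At ELK3 (chr12:96194375-96269824, plus strand), which can act as a repressor, the peak chr12:96193961-96196446 had a fold enrichment of 34.9 and a −log10 q of 121. Its pileup was 92 fragments (74.2 to 113) and its summit was 76 bp downstream of the outer start. With 2486 bp it was the widest of the 28 peaks, at the 98.9th percentile of all peaks by width, and it covered the GC-rich promoter printed above, whose GC content is 82.0%. No peak overlapped the 250 bases before the other annotated start of ELK3, at 96255498.

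At ELK4 (chr1:205607943-205632011, minus strand), the peak chr1:205630899-205632463 had a fold enrichment of 20.7, a −log10 q of 56.4 from 51 fragments (37.97 to 67.1). Its summit lay 220 bp upstream of the start. Among the members it was the peak at a 5′ end whose summit fell inside a printed promoter, and the site CCGGAAG was centred 201 bp from it. The peak covered the site as well as the start.

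At ELK1 (chrX:47635520-47650604, minus strand), a nuclear target of ERK, the peak chrX:47650291-47650588 had a fold enrichment of 6.57 and a −log10 q of 8.79. Its pileup was 14 fragments (7.65 to 23.5), which did not overlap the intervals at ELK3 and ELK4. It was 298 bp wide and ended 16 bp inside the gene, with its summit 231 bp downstream of the start. The control level was 1.28, the lowest value in the list, which 30.3% of all peaks share.

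Away from the 5′ ends, ELK3 had a peak 17205 bp upstream of its outer start, at chr12:96176972-96177528, with a fold enrichment of 18.6 from 53 fragments (39.7 to 69.3). A further peak 18225 bp downstream of the start of ELK3 had a fold enrichment of 4.32 and 15 fragments. The other peak near ELK4, chr1:205591565-205592352, had a fold enrichment of 13.2 and lay at an end of LOC124904491, 15591 bp beyond the 3′ end of ELK4. The other peak near ELK1, chrX:47623496-47623894, had a fold enrichment of 6.13 and lay 214 bp from an end of CFP, which encodes properdin. SRF, the partner of these factors, had a peak at its 5′ end with a fold enrichment of 44.4.

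GABPA and ELF1 each had a peak at a 5′ end that a neighbouring gene shared. At GABPA (chr21:25734972-25772460, plus strand), the peak chr21:25734552-25736107 had a fold enrichment of 35.3 and a −log10 q of 135. The pileup was 104 fragments (85.0 to 126). It was the sole peak within 20 kb of GABPA. ATP5PF, which encodes a subunit of the mitochondrial ATP synthase and is transcribed in the opposite direction, ends in RefSeq at 25735653, so the 5′ parts of both genes overlap. The summit at 25735603 was 50 bp inside this outer end of ATP5PF and 631 bp downstream of the start of GABPA. Relative to the annotated starts of ATP5PF, at 25735054 and 25734904, it lay at −549 and −699 bp. The peak covered the GABPA promoter with its site CCGGAAG, centred 694 bp from the summit. The same bases also lie before the ATP5PF start at 25734904. Another CCGGAAG, before both annotated starts of ATP5PF, was nearer, centred 522 bp from the summit. Whether the enrichment belongs to GABPA, ATP5PF or both cannot be told apart. Of the partners of GABPA, GABPB1 had a peak at its 5′ end with a fold enrichment of 53.5, and GABPB2 had a peak at an end with a fold enrichment of 31.7. Among all protein-coding genes, 4.80% had an end peak with a fold enrichment over 50 and 16.0% one over 30.

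At ELF1 (chr13:40931919-41061386, minus strand), the peak chr13:41060005-41061989 had a fold enrichment of 27.4, a −log10 q of 97.0, from 82 fragments (65.2 to 102). It was 1985 bp wide. Its interval contained the outer start of ELF1, the start of WBP4, a splicing factor gene transcribed in the opposite direction, and the whole tRNA gene TRE-TTC1-2, which lies inside ELF1. The summit was 1138 bp downstream of the start of ELF1 and 490 bp from the nearer end of the tRNA gene. When summits were used in place of intervals, ELF1 therefore no longer counted as a gene with a peak within 1 kb of its end. No peak overlapped the 250 bases before the other annotated starts of ELF1, at 40982282 and 40982899. The other peak near ELF1, beyond its 3′ end, had a fold enrichment of 8.42 and lay at the ends of the pseudogenes TPTE2P5 and SUGT1P3.

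At the 3 genes known for epithelial differentiation, no peak was found at an end. Of all protein-coding genes 62.1% had one, and 3 genes are too few for a contrast with this share. The 4 peaks nearby were distal, and 3 of them were under the median fold enrichment of all distal peaks, 8.32, with the fourth, at EHF, at 8.52. ELF3 (chr1:202010587-202017183, plus strand) had no peak within 20 kb, as did 13.9% of protein-coding genes. Among the 1505 protein-coding genes with a span of 0.8 to 1.25 times that of ELF3, 20.8% had no such peak. The nearest peak, 27.0 kb from ELF3, had a fold enrichment of 44.2 and overlapped an end of RNPEP. Over all 10 genes, the outermost peak inside the limit of 20 kb and the nearest one beyond it were both near ELK3, at 16847 bp with a fold enrichment of 18.6 and at 21.1 kb with one of 5.29.

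EHF (chr11:34621093-34663288, plus strand) had 2 peaks, both inside the gene and 9918 and 7995 bp from its 3′ end. The former, chr11:34653016-34653370, had a fold enrichment of 5.22 from 13 fragments (6.92 to 22.2), and the latter, chr11:34654933-34655293, one of 8.52 from 22 fragments (13.8 to 33.3). These intervals overlapped. Neither the outer end nor the annotated starts of EHF, at 34624257 and 34632566, had a peak within 1 kb. The next peak was 132 kb from the gene.

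SPDEF (chr6:34537802-34556329, minus strand), known for goblet cell differentiation, had 2 peaks. The peak inside the gene, chr6:34546515-34547006, had a fold enrichment of 2.72, a −log10 q of 1.54 and 10 fragments (4.80 to 18.4), at a control level of 3.04. It ranked at the 0.0974th percentile of all peaks by fold enrichment. The peak beyond the 3′ end, chr6:34527174-34527437, had one of 4.65 from 13 fragments (6.92 to 22.2). The list holds called peaks alone, so enrichment below the caller's threshold at these genes was not detectable here.

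The 7 peaks at the ends of the members can be ordered by pileup. ETS2, GABPA, ELK3 and ELF1 came first, with 121, 104, 92 and 82 fragments, and each interval overlapped that of the next. The interval of ELK4, with 51 fragments, overlapped that of ELF1 but not that of ELK3. ETS1, with 20 fragments, and ELK1, with 14 fragments, overlapped each other and lay below ELK4 without overlap. At the 6 genes with a peak at the 5′ end, the summit lay downstream of the outer start in 5, by 76 to 1138 bp, and upstream in ELK4. The outer start is the most upstream one, and the ETS2 summit lay at −325 bp relative to its other start. The share over all genes with such a peak was not computed, so this count is not a result about these genes.

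**Figure D3:**
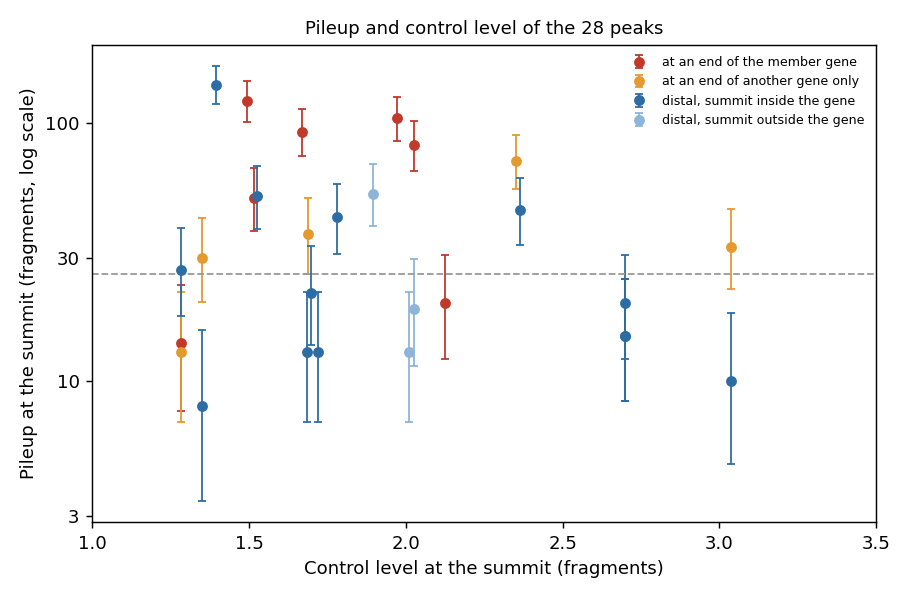
The pileup at the summit of each of the 28 peaks (y axis, log scale, with exact Poisson 95% confidence intervals) is plotted against its control level in fragments (x axis), with the median pileup of all peaks, 26, as a dashed line. The control levels lay between 1.28 and 3.04 in all classes of peak, and ETS2, GABPA, ELK3 and ELF1, with 121, 104, 92 and 82 fragments, were the highest at the members' own ends.

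A comparison of peaks at gene ends with distal ones was then made. A peak was called distal if no end of any RefSeq gene lay within 1 kb of it. Of the 28 peaks, 12 (42.9%) were at a gene end, against 29.5% of all 54389 peaks, 7 of them at an end of the member itself and 5 at an end of another gene alone. The remaining 16 were distal, 13 inside the gene and 3 outside it. The window around each member contains its own ends by construction, so the larger share at gene ends is not a result about these genes.

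For the 12 peaks at any gene end the median of the fold enrichment was 17.4, with a range of 6.13 to 48.9, against 13.7 over all peaks at gene ends. Among them, the 7 peaks at the members' own ends had a median fold enrichment of 27.4, with a range of 6.57 to 48.9, and the 5 at ends of other genes alone had a median fold enrichment of 13.2. The value of 13.7 covers either end of any RefSeq gene, whereas 6 of these 7 peaks were at 5′ ends of protein-coding genes. It is therefore not a like measure for the 7, and a median for protein-coding genes alone was not computed. The median width of the 12 peaks was 1172 bp, against 848 bp over all peaks at gene ends. The values 13.7 and 848 bp come from the same set, so neither is a wholly like measure for the 12, which include the 7. The distal peaks had a median fold enrichment of 6.14, against 8.32 over all distal peaks, and a median width of 443 bp, against 457 bp. ETS1 supplied 9 of the 16 distal peaks, and the remaining 7 had a median fold enrichment of 5.22. The ranges of the classes overlapped, because the distal peak of ETS1 with a fold enrichment of 58.9 was above all 7 peaks at the members' own ends, and ELK1 and ETS1 had weak peaks at their ends.

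**Figure D4:**
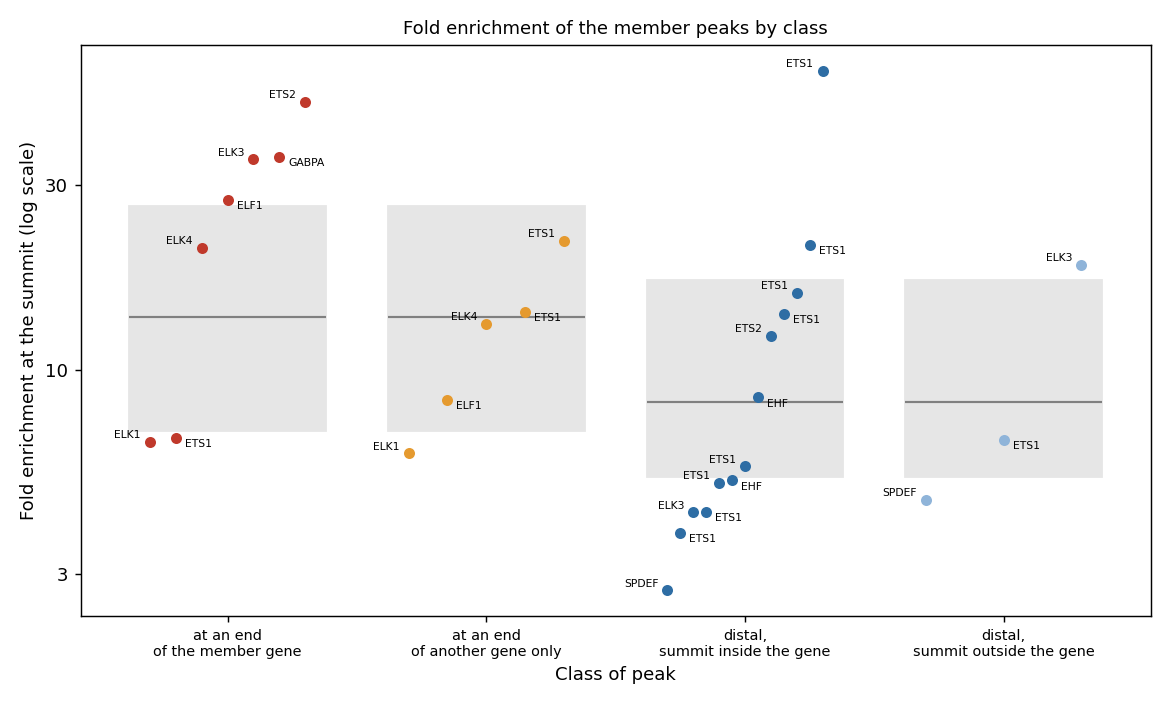
The fold enrichment of the 28 peaks (y axis, log scale) is plotted by class (x axis), each point labelled with its gene. Grey boxes and lines give the quartiles and median of all peaks at gene ends, 13.7, for the first pair of classes and of all distal peaks, 8.32, for the last pair. Of the peaks at the members' own ends, 5 lay above the median and those of ELK1 and ETS1 below the lower quartile. That median covers either end of any RefSeq gene, not protein-coding genes alone.

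The genes with a peak at an end were also counted with a minimum fold enrichment required of the peak. With a fold enrichment over 5, all 7 genes still had a peak at an end, against 57.5% of protein-coding genes. With a fold enrichment over 10, 5 of the 10 genes remained, ETS2, ELK3, ELK4, ELF1 and GABPA, against 45.2%. These 5 also passed a fold enrichment over 20, which 27.6% of protein-coding genes passed. All these counts use the limit of 1 kb. With a limit of 2 kb, ETS1 would also pass over 10 and over 20, through its peak with a fold enrichment of 20.99. The shares of protein-coding genes by fold enrichment were not computed at that limit. With a fold enrichment over 30, ETS2, ELK3 and GABPA remained, against 16.0%, and with a fold enrichment over 50 none of the 10, against 4.80%. Each gene counts for 10% of the list, so these shares are coarse.

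The other 18 genes of the ETS family were compared by the same measure. Of these, 13 (72.2%) carried a peak at an end, close to the 70% of the 10 genes, against 62.1% of protein-coding genes. ETV4 itself is counted among them. The direction was known for 13 of the 18 genes. Of those, 9 had a peak no further than 1 kb from the outer 5′ end, against 61.3% of protein-coding genes with a known direction. A peak within 20 kb was present for 17 of the 18, against 86.1% of protein-coding genes. All these shares were near the background. The highest fold enrichments at an end were found at ERF, a repressor regulated by ERK, with 102, at ETV3, another repressor of the same group, with 74.9, and at ETV6, a factor needed in blood stem cells, with 65.7. With a fold enrichment over 50, these 3 of the 18 genes remained, against 4.80% of protein-coding genes and none of the 10 described. The 5 genes without a peak at an end were ELF5, ETV7, FLI1, SPI1 and SPIC. ELF5, another epithelial factor, had no peak within 20 kb, as did 13.9% of protein-coding genes. FLI1, known from blood and vessels, had 5 peaks within 20 kb, and SPI1 and SPIC, factors of blood cells, had 1 each. ETV4 itself, named here because the transfected construct carries its sequence, had an end peak with a fold enrichment of 46.8 and a control level of 9.11, which is above the range of the 28 peaks.

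**Figure D5:**
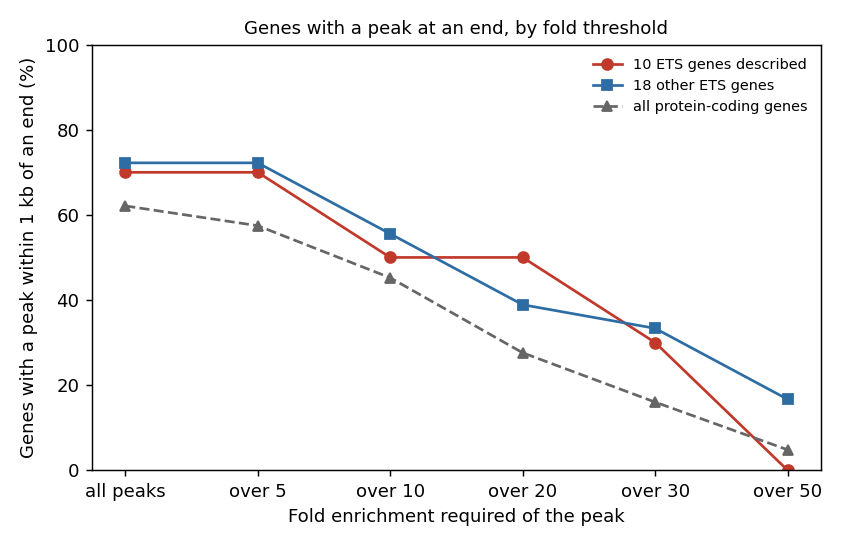
The share of genes with a peak within 1 kb of an end (y axis, %) is plotted against the fold enrichment required of the peak (x axis) for the 10 ETS genes described, the 18 other ETS genes and all protein-coding genes. The 10 genes went from 70% without a requirement to 50% over 20 and 0% over 50, and all protein-coding genes from 62.1% to 27.6% and 4.80%.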

How the data were processed

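ChIP-seq was available as a peak list of 1 anti-Flag (ETV4) immunoprecipitate, called by the authors against 1 input library; no file of the input was analysed here. The deposited list gives for each peak its interval, its summit, the fold enrichment (a ratio), the −log10 p and the −log10 q, and a display score, which is not reported. The submitters' processing notes name Bowtie2 2.4.1, SAMtools, MACS2 2.2.7.1, deepTools 3.5.0 and the build hg38, without parameters. The handling of duplicate reads is not given in the sources used here.

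Gene spans came from RefSeq genes (GRCh38.p14) and starts from a RefSeq promoter table. Peaks were at a gene end when the interval lay within 1 kb of an outer end. Positions are 1-based. The solution for pileup and control level left at most 0.00785 of −log10 p over all peaks, and intervals cover counting error only. Fragments are not known to be independent molecules. Distances, counts and pileups were tested on simulated peaks. The members and lists were chosen with earlier results of these data known. The named genes were the 10 members, genes with an end at a peak of a member, and, of the other ETS genes and partners, the 3 highest and those with no peak at an end. SRF, GABPB1 and GABPB2, fixed as partners, are all given. RNPEP, SYN1, CFP, MIR6090, TPTE2P5, SUGT1P3, LOC124902789, LOC124904491 and ETV4 were named after the values had been seen. Calculations used scipy 1.17.1, pandas 2.3.3 and numpy 2.4.6 under Python 3.11.15, and plots matplotlib 3.10.9.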

Additional observations from a re-analysis of the deposited data

How the results depend on the processing

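Of 38 values recomputed under other settings, 33 stayed within 1.5 times the reported value. The 28 peaks became 14 with a fold enrichment over 10, 18 with a −log10 q over 10 and 16 without ETS1, and the distal peaks became 7 without ETS1. The median fold enrichment at gene ends, 17.4, became 27.4 when the ends of the member genes alone were counted. Leaving out ETS1 and the use of any annotated start in place of the outer 5′ end were chosen after seeing the data; the latter gave 6 genes, as before. By summits, 5 genes had a peak at the 5′ end. No paired analysis was possible because there is 1 immunoprecipitate without a replicate. The depth, a median pileup of 26 fragments, limits what the weak peaks can show.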

Other observations

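Between 20 and 50 kb from the 10 genes there were 14 further peaks. The highest fold enrichment among them was 56.1, in a peak 26.9 kb beyond ELK1 with a pileup of 127 fragments, 11261 bp from the nearest gene end, that of SYN1. The peak at RNPEP near ELF3, with 44.2, was next, followed by a peak 33.3 kb from GABPA with 17.5 and 52 fragments. Within 50 kb of EHF and SPDEF no peak was added.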
